A study of Rattus norvegicus with 18 samples.

Results

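The mitochondrial carrier family, whose genes are named Slc25a, was examined in RNA of the ventral tegmental area (VTA). Members were the rat genes with a symbol made of Slc25a and a number that reached 0.5 CPM or more in at least 6 libraries, where CPM is the count scaled to the total of its library. The deposited files hold 49 such symbols among 38445 genes, and 43 met the level. The rule used level only, so it fixed no difference between groups. The VTA is a midbrain region rich in dopamine neurons. Tissue came from 18 adult male wild-type Sprague-Dawley rats, 1 library per rat and 6 rats per group. All rats were fed a Lieber-DeCarli liquid diet. The 6 control rats (numbers 1 to 6) never had ethanol in it. In the chronic ethanol rats (7 to 12) the diet held 9% v/v ethanol, given over 15 or 16 days, and tissue was collected with no withdrawal (0 h). The withdrawal rats (13 to 18) had the same ethanol diet, with collection 24 h after its end. A dissected block holds many cell types, and in bulk RNA fewer cells of a type and less RNA per cell cannot be told apart.

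Carriers of this family sit mostly in the inner mitochondrial membrane and exchange one small molecule for another across it. Adenine nucleotide translocases trade matrix ATP for cytosolic ADP, and the phosphate carrier brings in the phosphate that ATP synthase needs. Other members move aspartate, glutamate and malate in the shuttles that carry reducing power into the matrix, or move amino acids, carnitine, coenzymes, nucleotides, iron and glutathione. In nervous tissue the aspartate and glutamate carriers also link mitochondria to transmitter glutamate. The ATP-Mg/phosphate carriers, encoded by Slc25a23, Slc25a24 and Slc25a25, change the total adenine nucleotide pool of the matrix and carry calcium-binding domains.

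Library totals ran from 29566318 to 45079983 counts, and 3 counts stood for 0.0665 to 0.101 CPM, a floor that covers counting error only. As a check of the labelled tissue, Th, which makes the dopamine precursor, was present in every library but ranged widely, between 17.6 CPM (rat 17) and 762 CPM (rat 2). Withdrawal rat 13 stood apart with 14977 CPM of Tph1 and 411 CPM of Asmt, both genes of melatonin synthesis in the pineal gland, whereas the other 17 rats had 0.546 to 7.43 and 0.599 to 1.98 CPM. Control rat 5 and ethanol rat 8 held 31.3 and 30.6 CPM of Hoxb3, a hindbrain patterning gene at or below 2.01 CPM in the other rats. For several members whose values turn on rat 13, fitted differences are given with and without it. The library names carry an index, which was 1 sequence for rats 1 to 8, another for rats 9 to 16 and yet another for rats 17 and 18. Index and group are therefore entangled, and no withdrawal rat shared an index with a control rat. With the index as a term, differences from control rest on ethanol rats 7 and 8, the only other rats with the controls' index. For withdrawal against control such a fit is indirect, through the ethanol rats.

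The results turn most on the ATP-Mg/phosphate carriers, so the 250 bases before their annotated starts are shown, as listed by RefSeq on the GRCr8 build. They are written 5′ to 3′ on the gene's strand. Capitals mark matches on either strand to 4 short motifs: the cAMP response element TGACGTCA, the CCAAT box CCAAT, the GC box GGGCGG and the TATA box TATAAA.
Slc25a23 (chr9:1985366-1985615, minus strand): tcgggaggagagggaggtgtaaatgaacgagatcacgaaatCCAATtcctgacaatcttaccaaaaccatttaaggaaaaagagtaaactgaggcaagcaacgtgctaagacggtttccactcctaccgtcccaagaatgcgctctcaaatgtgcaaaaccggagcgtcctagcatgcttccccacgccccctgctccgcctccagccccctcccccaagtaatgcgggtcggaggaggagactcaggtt
Slc25a24 (chr2:199449175-199449424, plus strand): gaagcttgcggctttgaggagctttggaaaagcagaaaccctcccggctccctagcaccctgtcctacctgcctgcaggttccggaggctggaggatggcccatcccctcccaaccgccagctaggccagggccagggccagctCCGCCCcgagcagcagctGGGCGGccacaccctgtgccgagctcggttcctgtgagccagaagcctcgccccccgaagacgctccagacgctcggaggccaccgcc
Slc25a25 (chr3:36116582-36116831, minus strand): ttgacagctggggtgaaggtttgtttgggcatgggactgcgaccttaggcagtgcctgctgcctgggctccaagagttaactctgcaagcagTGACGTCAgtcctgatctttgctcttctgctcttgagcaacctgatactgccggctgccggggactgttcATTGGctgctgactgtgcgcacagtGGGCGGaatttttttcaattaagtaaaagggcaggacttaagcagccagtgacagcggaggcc

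The window of Slc25a25 held 1 cAMP response element, 151 to 158 bases before the start, with a CCAAT box and a GC box nearer to it. That of Slc25a24 held 2 GC boxes, on opposite strands, and none of the other motifs. Slc25a23 had 1 CCAAT box, 205 to 209 bases before the start. RefSeq's table had a window for 36 of the 43 members, 2 of them with 2 windows, and a match in either was counted. GC boxes stood in 23 of the 36 members (63.9%) against 30.5% of 33469 promoters, and CCAAT boxes in 20 (55.6%) against 34%. TATA boxes stood in 2 (5.56%; Slc25a38 and Slc25a48) against 12.9%, and the cAMP response element in 2 (5.56%; Slc25a25 and Slc25a33) against 1.59%. The members' windows were richer in G and C, with a median of 57.8% against 51.2%, and the part of base composition in these shares was not tested. No motif overlapped another in the 3 windows shown. A match is a string of letters, not a site shown to be used.

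Mean levels per exon length spanned a 1822-fold range, as the plot of all members by rat shows. Slc25a4, the adenine nucleotide translocase of heart, muscle and brain, was highest at 509 ± 38.4 CPM per kb of exon (SD, n = 18). It was followed by the phosphate carrier Slc25a3 at 278 ± 14.8 and the second translocase Slc25a5 at 185 ± 6.36 CPM per kb. Next was Slc25a23 at 94.3 ± 12.6, ahead of the oxoglutarate/malate carrier Slc25a11 at 77.2 ± 5.37 and the pyrimidine nucleotide carrier Slc25a33 at 51.8 ± 12.1 CPM per kb. The first 4 made up 63.1% of the family's summed level per kb. All members summed to 2979 to 3164 CPM (median 3036) in control, 2984 to 3268 (median 3100) in chronic ethanol and 2977 to 3041 (median 3025) in withdrawal, and these ranges overlapped. Slc25a23 and Slc25a11 overlapped in their ranges over rats, whereas Slc25a4, Slc25a3 and Slc25a5 kept this order in every rat.

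**Figure D1:**
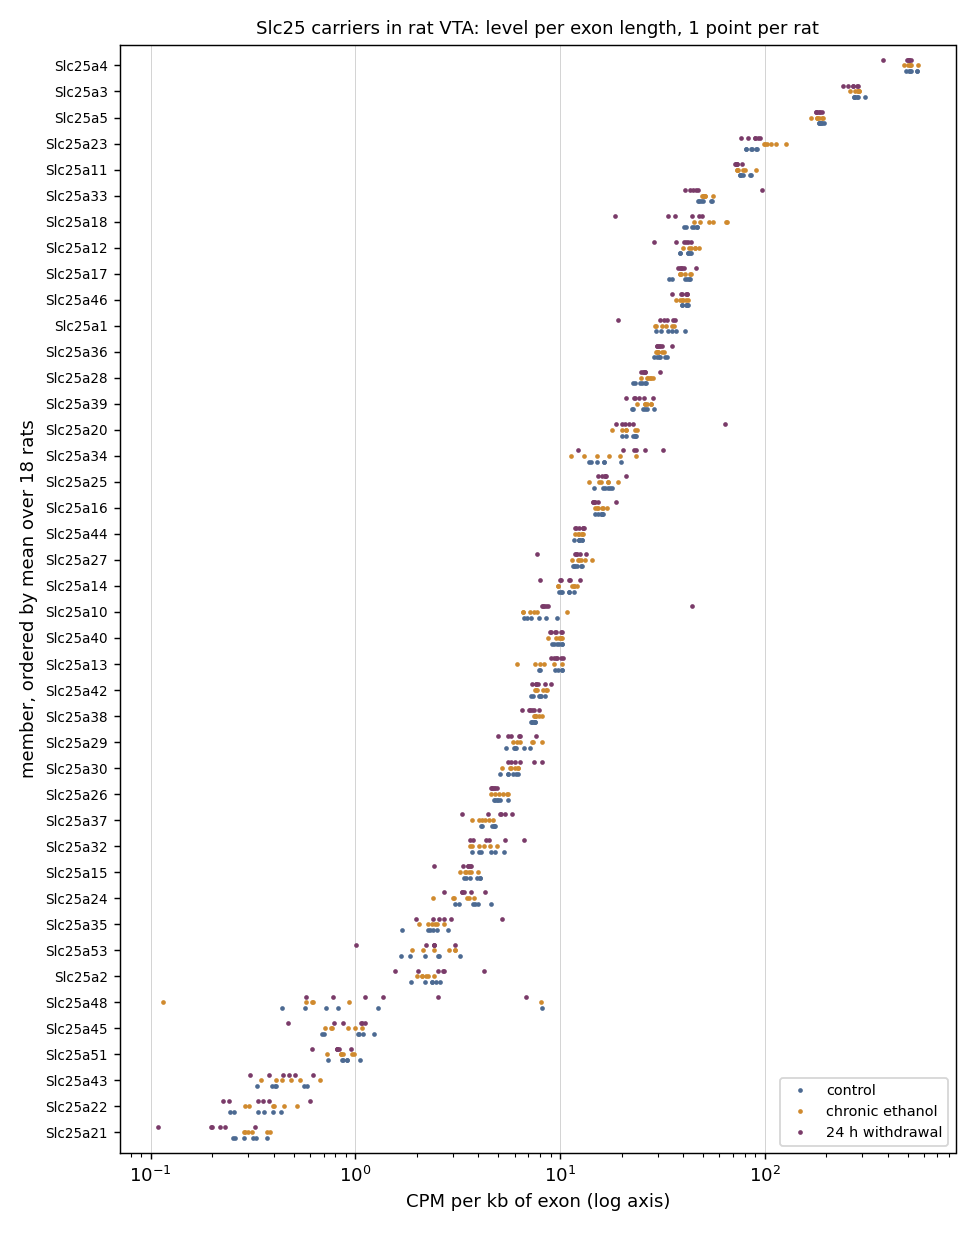
Level of the members reported here per kb of exon on a log axis, 1 point per rat, coloured by group. Slc25a4, Slc25a3 and Slc25a5 lead in all 18 rats, the 3 groups lie over one another for most members, and single points far to the right or left (Slc25a10, Slc25a20, Slc25a48) are single rats.

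At the low end, 8 members averaged under 5 CPM and 4 under 2 CPM, while 34 were at 10 CPM or more. The glutamate carrier Slc25a22 had 0.94 CPM and the oxodicarboxylate carrier Slc25a21 had 1.07 CPM, and these were the members nearest above the rule. Just outside it were Slc25a6 at 0.269 CPM, with 1 library at 0.5 CPM, and Slc25a47 at 0.145 CPM, with none. The other symbols outside were Slc25a31, Slc25a41, Slc25a52 and Slc25a54. Slc25a41, a close relative of the ATP-Mg/phosphate carriers, had 0 counts in all 18 libraries, although it lies 1212 bases beyond Slc25a23 on the same strand of chromosome 9 (Rnor_6.0). Slc25a54 likewise lies 3180 bases from Slc25a24 on chromosome 2, at 0.0575 against 12.2 CPM. In both pairs a carrier that met the rule lies beside one that did not.

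Among the members with at least 5 CPM the median coefficient of variation over the 18 rats was 10.1%, beside 12.9% for the 12049 genes at that level. Slc25a5 was the steadiest at 3.44%, from 203 CPM in ethanol rat 9 to 234 CPM in control rat 2. Slc25a44, a carrier of branched-chain amino acids, Slc25a38, the glycine carrier of haem synthesis, and Slc25a46, an outer membrane protein of mitochondrial dynamics, were next. The widest were Slc25a48, Slc25a10, Slc25a20 and Slc25a34, and a few rats set the spread of the first 3. Files also list 32 genes named as copies of a carrier, of which 3 reached 1 CPM. All 3 were copies of Slc25a5, whose 10 copies summed to 8.04 CPM. Pairs that map to several places were left out, so reads that Slc25a5 shares with near-identical copies could be missing from both. The 8.04 CPM does not measure such a loss.

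No member passed an adjusted p under 0.05 by edgeR's quasi-likelihood test over 17637 genes, in any of the 3 pairwise comparisons of groups or in the test of any difference among them. The share called over all genes was 0% in each of these tests. Counts at an unadjusted p under 0.05 are therefore given as a description, beside the share of all genes tested. In chronic ethanol against control, 2 members were higher and 0 lower (4.65% of 43, against 5.84% of all genes, 3.1% higher and 2.74% lower). In withdrawal against control, 3 were higher and 3 lower (14% against 9.82% of all genes, 6.24% higher and 3.58% lower). In withdrawal against chronic ethanol, 3 were higher and 4 lower (16.3% against 15.3% of all genes, 9.38% higher and 5.95% lower). For any difference among the groups there were 5 (11.6% against 11.5%). With all rats, the members' shares lay near those of all genes. In chronic ethanol against control, leaving out 1 rat at a time gave 1 to 4 members. There was 1 without rat 3, 4, 5, 7, 11 or 12, and there were 4 without rat 8. In withdrawal against control it gave 3 to 7 (3 without rat 2, 3 or 17). In withdrawal against chronic ethanol it gave 3 to 10 (4 without rat 7, 3 without rat 12, 10 without rat 13). Without rat 13, 2475 genes in all passed in that comparison, beside 7 members and 2704 genes with all rats. For any difference, leaving out 1 rat gave 3 (without rat 1 or 10) to 8 (without rat 8). In the same order, fitted medians of the members were 0.00, -0.03 and -0.03 on the log2 scale, beside 0.00, 0.01 and 0.02 over all genes tested. Of the 43 members 32, 25 and 20 differed by less than 0.1 log2 in size, with a median SE of 0.09 in every comparison. Each group enters 2 of the comparisons, so they share rats and are not independent.

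**Figure D2:**
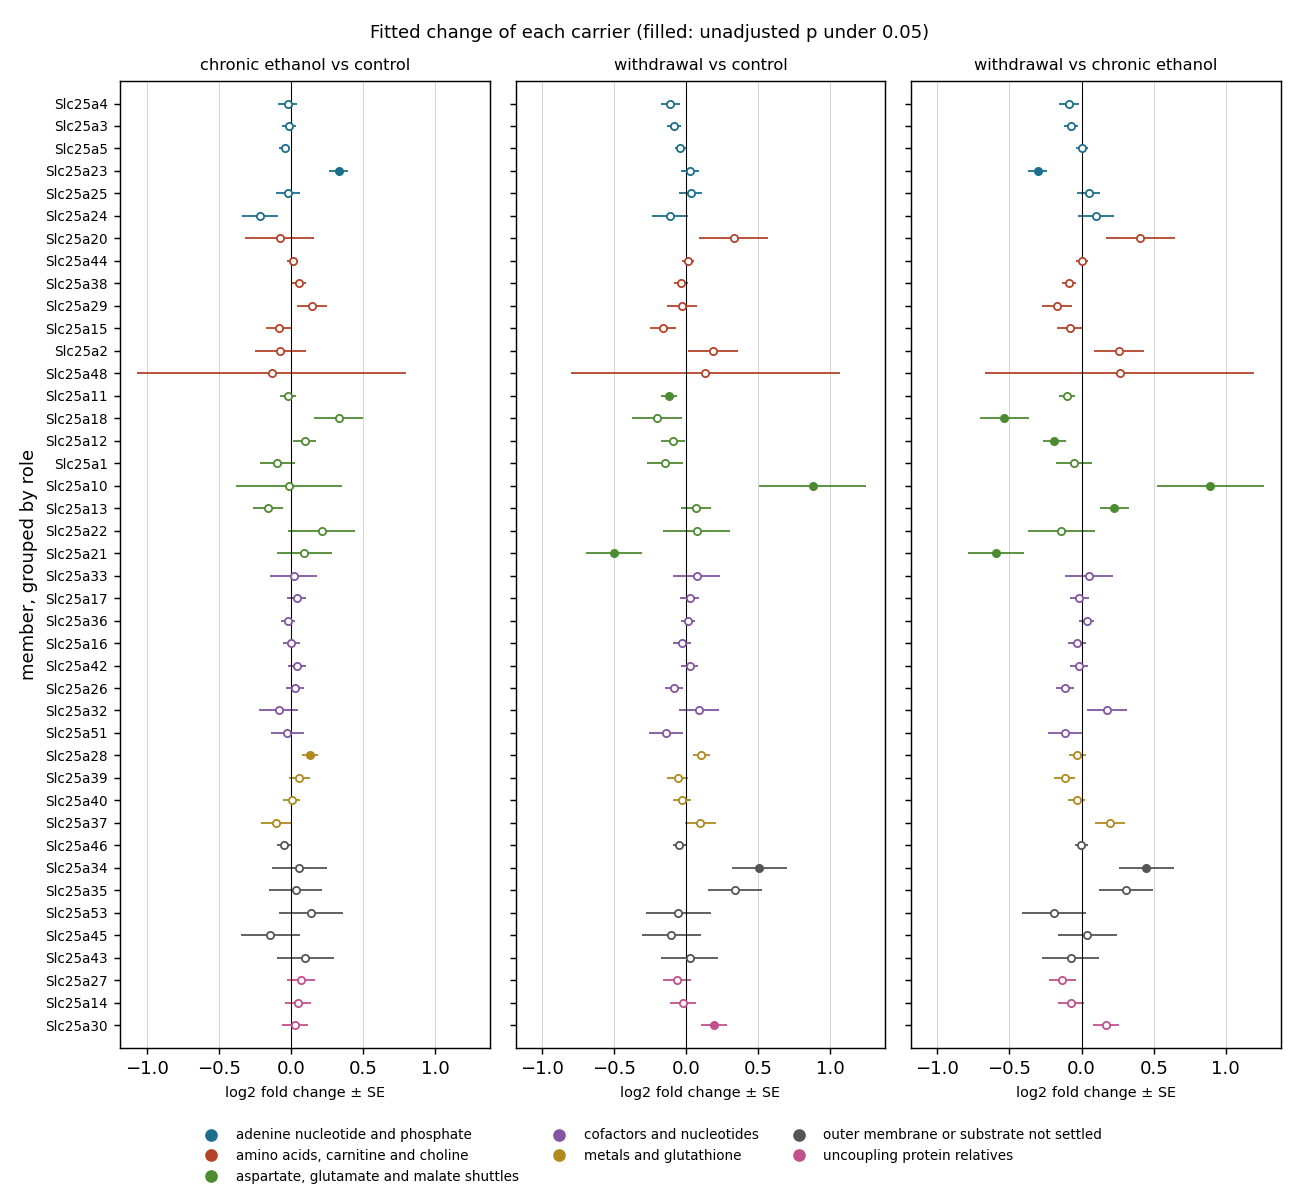
Fitted log2 fold change of the members reported here with its SE in the 3 comparisons, grouped and coloured by role, with filled points at an unadjusted p under 0.05. Most points lie within 0.1 of 0 in the comparisons with control, but not in withdrawal against chronic ethanol. Slc25a23 stands to the right in chronic ethanol against control and to the left in withdrawal against chronic ethanol.

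Slc25a23 was the member with the lowest p in both comparisons that involve the ethanol rats. Control rats had 197 to 224 CPM (median 210), chronic ethanol rats 243 to 310 (median 256) and withdrawal rats 188 to 232 (median 219). Every ethanol rat was above every control rat and every withdrawal rat, and control and withdrawal overlapped. Means were 210 ± 11.5, 264 ± 25.1 and 214 ± 16.1 CPM (SD, n = 6). Chronic ethanol was above control by 0.33 ± 0.07 log2 (SE; edgeR adjusted p = 0.218), and withdrawal was below chronic ethanol by a log2 difference of -0.30 ± 0.07 (adjusted p = 0.0793). Withdrawal differed from control by 0.03 log2 (adjusted p = 0.901). The gene (identifier 301113) spans bases 9987988 to 10003599 of chromosome 9 in Rnor_6.0.

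For Slc25a23 the call depended on the tool. DESeq2 gave adjusted p of 0.0018 for chronic ethanol against control and 0.0015 for withdrawal against chronic ethanol, limma-voom 0.254 and 0.108. An exact permutation test of its log2 CPM, two-sided, gave p = 0.00216 in both, the smallest that 6 rats against 6 allow. That value is fixed once the groups lie apart. It was not adjusted for the 20 named members tested, so it is no separate support. Slc25a23 was the only member whose groups did not overlap in chronic ethanol against control, where 0.93% of genes tested did so, and in withdrawal against chronic ethanol, where 1.36% did. In withdrawal against control no member had groups apart (0.607% of genes). Within the index of rats 1 to 8 the 2 ethanol rats (243 and 310 CPM) lay above the 6 control rats. Within that of rats 9 to 16 the 4 withdrawal rats (203 to 225 CPM) lay below the 4 ethanol rats (246 to 275 CPM). Both follow from the separation over all rats and are no further test of it.

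**Figure D3:**
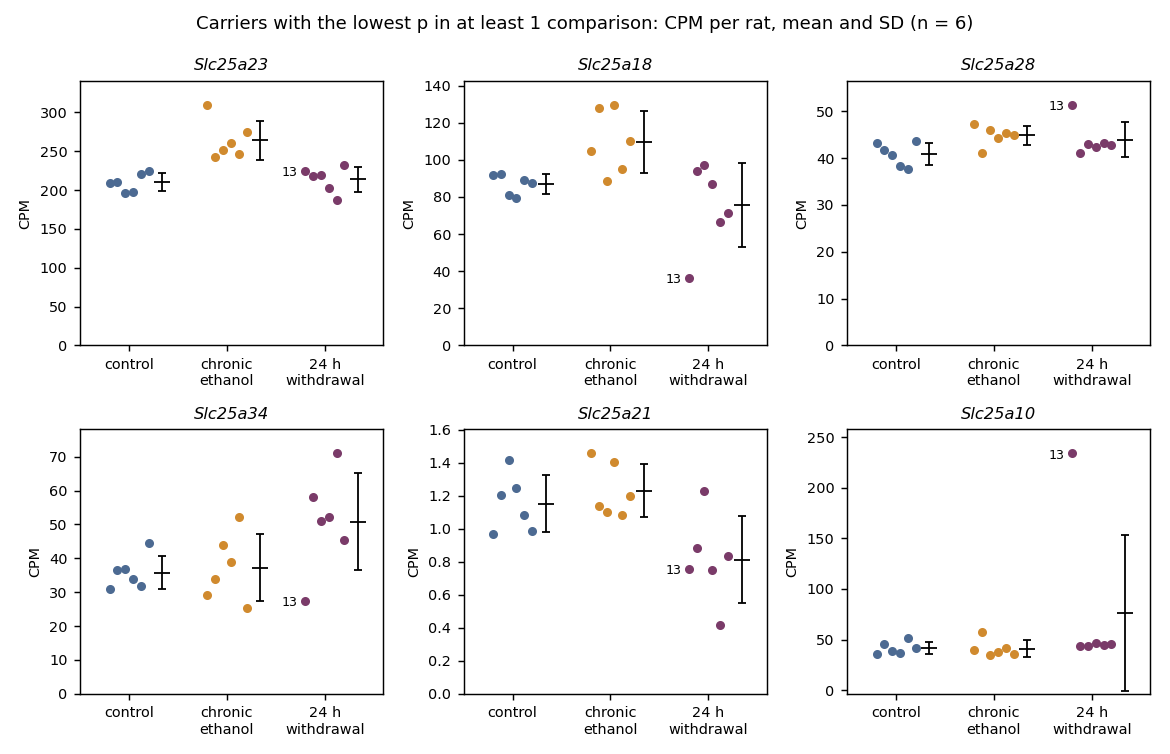
CPM of 6 members in each rat (points), with mean and SD of each group of 6 beside them and withdrawal rat 13 labelled. For Slc25a23 the ethanol rats lie at 243 to 310 CPM, above all other rats, whereas for Slc25a10 rat 13, at 234 CPM, lies far above the rest.

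The related ATP-Mg/phosphate carriers gave no such pattern. Slc25a25 had medians of 110, 108 and 108 CPM in control, chronic ethanol and withdrawal, with overlapping groups and fitted differences of -0.02, 0.03 and 0.05 log2 in the comparisons in the order above. Slc25a24 ran from 10.8 to 16.1 CPM (median 13.3) in control, 8.45 to 13.3 (median 11.5) in chronic ethanol and 9.55 to 15.1 (median 11.8) in withdrawal. These ranges overlapped, and the difference between chronic ethanol and control was -0.22 ± 0.13 log2 (SE; edgeR adjusted p = 0.936). With the library index as a term that difference was -0.47 (edgeR adjusted p = 0.6), an estimate that rests on ethanol rats 7 and 8. Within the index of rats 1 to 8 these had 10.5 and 8.45 CPM, below the 10.8 to 16.1 CPM of the 6 control rats. Rat 8 is the ethanol rat with hindbrain Hoxb3 RNA. Its mean log2 CPM of dopamine neuron markers, 4.20, was the lowest of its group. The translocases and the phosphate carrier varied little. Slc25a4 averaged 676 ± 33.6, 666 ± 32.8 and 627 ± 67.1 CPM, Slc25a3 419 ± 19.2, 415 ± 17.0 and 395 ± 23.5 CPM, and Slc25a5 226 ± 4.91, 219 ± 10.1 and 220 ± 6.22 CPM (SD, n = 6). The lowest value of Slc25a4, 491 CPM, was that of rat 13, and the other 17 rats had 621 to 722 CPM.

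The carriers of the aspartate, glutamate and malate shuttles, counted here with other carriers of dicarboxylates and citrate, were 8 members. Of these, 5 had an unadjusted p under 0.05 in withdrawal against chronic ethanol, 2 higher and 3 lower, beside 15.3% of all genes (9.38% higher and 5.95% lower). One of those higher, Slc25a10, had its difference through rat 13, as given below. Slc25a18, a glutamate carrier known from astrocytes, had 79.3 to 92.2 CPM (median 88.3) in control, 88.8 to 129 (median 107) in chronic ethanol and 36.4 to 97.1 (median 79.2) in withdrawal. In chronic ethanol 5 of 6 rats were above every control rat, and in withdrawal 4 of 6 were below every ethanol rat. The log2 difference was 0.33 ± 0.17 in chronic ethanol against control (edgeR adjusted p = 0.884) and -0.54 ± 0.17 in withdrawal against chronic ethanol (adjusted p = 0.186). Without rat 13, at 36.4 CPM, these were 0.33 (adjusted p = 0.263) and -0.39 (adjusted p = 0.114). Without rats 5, 8, 13 and 17 the latter was -0.27, with 2 of 4 withdrawal rats below every ethanol rat.

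Astrocyte markers were read beside Slc25a18. The summed level of the 8 markers, none at 0 in any rat, ran from 3299 to 5993 CPM in control, 2686 to 6446 in chronic ethanol and 2144 (rat 13) to 4721 in withdrawal. In chronic ethanol against control 4 were higher and 4 lower, and in withdrawal against chronic ethanol 2 were higher and 6 lower, with medians of 0.01 and -0.23 log2. Over the 18 rats Slc25a18 had Pearson's r = 0.62 with the mean log2 CPM of these markers (permutation p = 0.00279, Benjamini-Hochberg 0.0513). Spearman's rho was 0.55 (permutation p = 0.0208, Benjamini-Hochberg 0.239), so neither passed an adjusted p of 0.05. Without rat 13, r was 0.48. The part of these markers in the group differences of Slc25a18 was not tested.

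Slc25a12 (aralar) and Slc25a13 (citrin) are the calcium-sensitive aspartate/glutamate carriers, of which aralar is the neuronal form. Slc25a12 had 105 to 120 CPM (median 116) in control, 109 to 130 (median 122) in chronic ethanol and 78.3 to 119 (median 111) in withdrawal. Slc25a13 had 24.5 to 31.7, 19.2 to 31.7 and 28.1 to 32.3 CPM, with medians of 29.8, 25.4 and 29.8. All groups overlapped for both genes, and in withdrawal against chronic ethanol the fitted differences had opposite signs, -0.19 ± 0.08 and 0.23 ± 0.10 log2 (edgeR adjusted p = 0.299 and 0.31). The lowest value of Slc25a12, 78.3 CPM, was that of rat 13, without which its difference was -0.11 ± 0.05 (adjusted p = 0.348).

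Slc25a21 had 0.967 to 1.42 CPM (median 1.15) in control, 1.09 to 1.46 (median 1.17) in chronic ethanol and 0.415 to 1.23 (median 0.795) in withdrawal. Withdrawal lay lower in 5 of 6 rats than any control rat, and likewise than any ethanol rat, at levels near the lower limit of the rule. Its log2 differences were -0.50 ± 0.19 against control and -0.59 ± 0.19 against chronic ethanol (SE; edgeR adjusted p = 0.451 and 0.19), and without rat 17, at 0.415 CPM, -0.37 and -0.47. A model that also held the index gave -0.23 against control, reached through the ethanol rats because control and withdrawal share no index. Slc25a11 had 71.6 to 80.8 CPM (median 73.3) in control and 67.4 to 73 (median 68.7) in withdrawal, where 5 of 6 rats were below every control rat. That difference, -0.12 ± 0.05 log2 (edgeR adjusted p = 0.49), turned to 0.06 with the index as a term. Slc25a1, the citrate carrier, and Slc25a22 had p above 0.2 in all comparisons.

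For the dicarboxylate carrier Slc25a10 the mean depended on a single rat. Control rats had 35.4 to 51.3 CPM (median 40.1), chronic ethanol rats 35.2 to 57.6 (median 38.7) and withdrawal rats 43.4 to 234 (median 44.9). Rat 13 had 234 CPM, 5.58 times the median of the other 17 rats. With it the log2 difference was 0.88 ± 0.37 against control and 0.89 ± 0.37 against chronic ethanol (edgeR adjusted p = 0.475 and 0.286). Without it they were 0.10 and 0.12 (adjusted p = 0.84 and 0.698).

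Among members whose substrate is not settled, Slc25a34 had 30.9 to 44.5 CPM (median 35.2) in control, 25.3 to 52.2 (median 36.4) in chronic ethanol and 27.5 to 70.9 (median 51.7) in withdrawal. In withdrawal 5 of 6 rats were above every control rat, and the remaining one, rat 13, was below every control rat. The difference from control was 0.51 ± 0.19 log2 (edgeR adjusted p = 0.436) with all rats, and an exact permutation test of log2 CPM, two-sided, gave p = 0.0498. Without rat 13 it was 0.63 (adjusted p = 0.22), and the other 5 withdrawal rats, at 45.3 to 70.9 CPM, lay apart from control, as did 1.22% of genes tested. With the index as a term it was 0.06, an estimate to which rats 17 and 18 do not contribute. From chronic ethanol the difference was 0.45 ± 0.19 (adjusted p = 0.294). The groups of the related gene Slc25a35 overlapped, and its highest value, 9.77 CPM, was again in rat 13. The outer membrane member Slc25a46 had group medians of 121, 116 and 117 CPM, and the low members Slc25a43, Slc25a45 and Slc25a53 differed by -0.19 to 0.14 log2.

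Among iron and glutathione carriers, Slc25a28 (mitoferrin 2, which brings iron into mitochondria) had 37.7 to 43.6 CPM (median 41.3) in control, 41.1 to 47.3 (median 45.2) in chronic ethanol and 41.1 to 51.3 (median 42.9) in withdrawal. In chronic ethanol 5 of 6 rats were above every control rat, a difference of 0.13 ± 0.06 log2 (edgeR adjusted p = 0.837). Slc25a37, the mitoferrin of red cell precursors, had medians of 22.1, 20 and 24.2 CPM and p above 0.05 in all comparisons with all rats. Its lowest value, 15.6 CPM, was that of rat 13. Without that rat, withdrawal was above chronic ethanol by 0.29 ± 0.07 log2 (SE, edgeR adjusted p = 0.0943). It was then above control by 0.19 ± 0.07 log2 (adjusted p = 0.485). With all rats the glutathione carriers Slc25a39 and Slc25a40 also had p above 0.05, with largest differences of -0.12 and -0.03 log2. All 4 red blood cell markers were lower than control in chronic ethanol and in withdrawal, with medians of -1.36 and -1.40 log2 and summed levels of 183 to 520, 52.2 to 234 and 92.3 to 174 CPM in control, chronic ethanol and withdrawal. Their part in the values of the iron carriers was not tested.

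Among cofactor and nucleotide carriers, the coenzyme A carriers Slc25a16 and Slc25a42, the peroxisomal carrier Slc25a17, the pyrimidine nucleotide carrier Slc25a36, the S-adenosylmethionine carrier Slc25a26, the folate carrier Slc25a32 and the NAD carrier Slc25a51 differed by -0.14 to 0.18 log2 in all comparisons. The other pyrimidine nucleotide carrier, Slc25a33, had 65.3 to 76.7 CPM (median 68.7) in control, 68.6 to 77.6 (median 70.5) in chronic ethanol and 56.3 to 135 (median 63.1) in withdrawal. Rat 13 was the highest of all rats, and the other 5 withdrawal rats, at 56.3 to 65.8 CPM, were below every ethanol rat and, in 4 of 5, below every control rat. With all rats the fitted differences were 0.02 in chronic ethanol against control, and 0.07 and 0.05 log2 for withdrawal against control and against chronic ethanol. Without rat 13 the latter pair turned to -0.19 ± 0.06 and -0.21 ± 0.06 (SE; edgeR adjusted p = 0.313 and 0.106). Without that rat Slc25a33 and Slc25a23 were the members with withdrawal apart from chronic ethanol, beside 2.09% of genes tested.

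The 7 carriers of amino acids, carnitine and choline gave no p under 0.05. Slc25a20, the carnitine/acylcarnitine carrier of fatty acid oxidation, had 35.1 to 41.4 CPM in control, 31.4 to 41.6 in chronic ethanol and 33.1 to 113 in withdrawal, with medians of 40.3, 37 and 37.2. The value of 113 CPM was that of rat 13. With all rats, withdrawal differed by 0.33 log2 from control and by 0.41 from chronic ethanol. Without rat 13 these turned to -0.10 and -0.02 (edgeR adjusted p = 0.736 and 0.923). Slc25a44 had group medians of 49.9, 50.6 and 51.0 CPM and Slc25a38 of 28.0, 28.8 and 27.3 CPM, and the groups of both overlapped. The ornithine carriers Slc25a15 and Slc25a2 and the basic amino acid carrier Slc25a29 differed by -0.17 to 0.26 log2. Of the uncoupling protein relatives, Slc25a30 had 18.3 to 22.5 CPM (median 20.8) in control and 20.1 to 29.5 (median 22.6) in withdrawal, overlapping, with a difference of 0.19 ± 0.09 log2 (edgeR adjusted p = 0.502). Slc25a14 and Slc25a27, which brain expresses strongly, differed by -0.13 to 0.07 log2.

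Rat 13 had the highest value of all 18 rats in 12 members and the lowest in 16. Its median distance from the other rats was 0.44 log2 over the 43 members and 0.42 over genes with at least 5 CPM, whereas other rats had 0.06 to 0.16 over the members. High in rat 13 were Slc25a10 (234 CPM), Slc25a33 (135 CPM, others 56.3 to 77.6) and Slc25a20 (113 CPM). Low were Slc25a18, Slc25a1 (31.4 CPM, others 48.1 to 67.2) and Slc25a27 (41.1 CPM, others 60.7 to 76.0). That rat also had the lowest summed oligodendrocyte markers, 16941 CPM beside medians of 32526 to 39052 in the groups, and pineal markers of 15858 CPM. The part of this cell content in its carrier values was not tested.

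Slc25a48, whose product takes up choline, was high in few rats of every group. It had 30.8 CPM in control rat 5, 30.6 in ethanol rat 8 and 25.7 in rat 13, then 9.58 CPM in rat 17. The other 14 rats had 0.435 (ethanol rat 10) to 5.13 CPM, beside a median of 3.02 CPM over all 18. Rats 5 and 8 were those with Hoxb3 above 30 CPM, and Slc17a7, a glutamate neuron gene, had 508, 408 and 810 CPM in rats 5, 8 and 13 beside group medians of 4.43 to 21 CPM. Fitted differences of Slc25a48 between groups were -0.13 to 0.26 log2 with an SE of 0.93, so these differences lie within the error. Without rat 13, withdrawal differed by -0.66 ± 0.93 log2 from control and by -0.53 ± 0.93 from chronic ethanol (SE), again within the error.

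**Figure D4:**
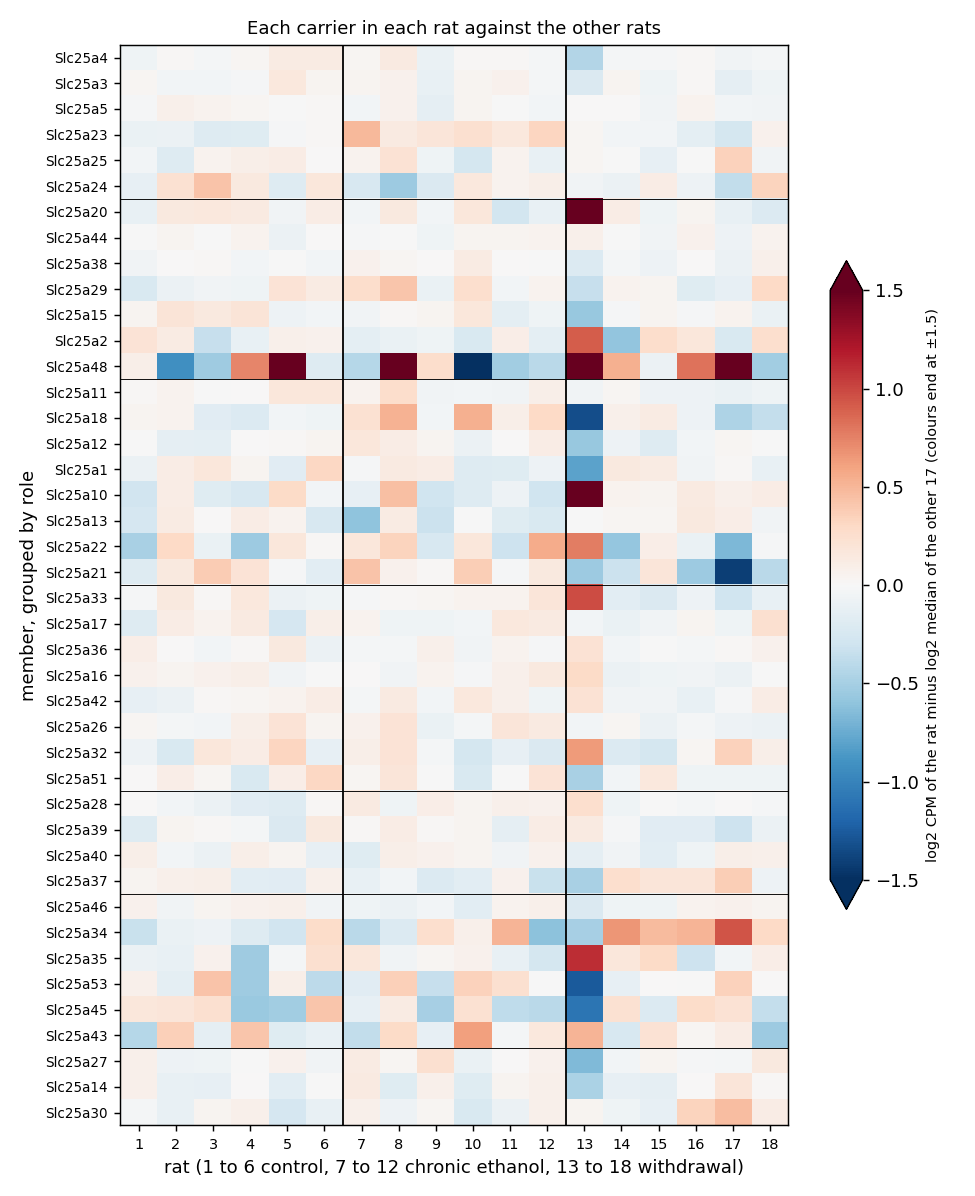
Log2 distance of the members reported here in each rat from the median of the other 17 rats, red above and blue below, grouped by role. Rat 13 carries most of the strong colours, rats 5, 8 and 17 stand high and rat 10 low for Slc25a48, and Slc25a23 is red in rats 7 to 12.

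Levels were also compared with the mean log2 CPM of 10 dopamine neuron markers, which ran from 2.83 in rat 17 to 7.14 in ethanol rat 12. Foxa2 was at 0 in at least 1 withdrawal rat and no other marker was at 0 in any rat. Summed, the markers had 1128 to 3500 CPM in control, 462 to 3377 in chronic ethanol and 396 to 2915 in withdrawal, where all 10 were lower than in control (median -0.40 log2, none at an unadjusted p under 0.05). Over the 43 members and 4 marker lists, 172 relations were computed. Slc25a24 was the only member with both coefficients past an adjusted p of 0.05, with Pearson's r = 0.75 (permutation p = 0.00021, Benjamini-Hochberg 0.00903) and Spearman's rho = 0.75 (permutation p = 0.0005, Benjamini-Hochberg 0.043) over 18 rats. Its r was 0.61 without the 2 rats farthest from the median, 8 and 17, and 0.89 and 0.57 within the 2 indices of 8 rats each.

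Slc25a25 went the other way, with r = -0.83 (permutation p = 1e-05, the smallest the resampling gives, Benjamini-Hochberg 0.00172) and rho = -0.70 (permutation p = 0.00154, Benjamini-Hochberg 0.0605). Without rats 8 and 17 its r was -0.57, and within the indices it was -0.76 and -0.60. Rat 17, with the fewest dopamine markers, had 137 CPM of Slc25a25 and rat 8 had 126, the highest values of all. Slc25a32 had r = -0.66 and rho = -0.79 (Benjamini-Hochberg 0.0573 and 0.0275), and Slc25a48 had r = -0.67 and rho = -0.72 (0.0513 and 0.0605). For Slc25a23 r was 0.26 (permutation p = 0.305). With general neuron markers 2 members and with oligodendrocyte markers 3 passed on Pearson's r alone, and in these rat 13 was among the 2 rats farthest from the median. For general neuron markers, r was 0.82 for Slc25a27 and 0.84 for Slc25a46, and 0.45 and 0.70 without rat 13. For oligodendrocyte markers, r was -0.84 for Slc25a16, 0.73 for Slc25a37 and 0.76 for Slc25a45. Without rat 13 these were -0.64, 0.59 and 0.52. No relation with astrocyte markers passed.

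**Figure D5:**
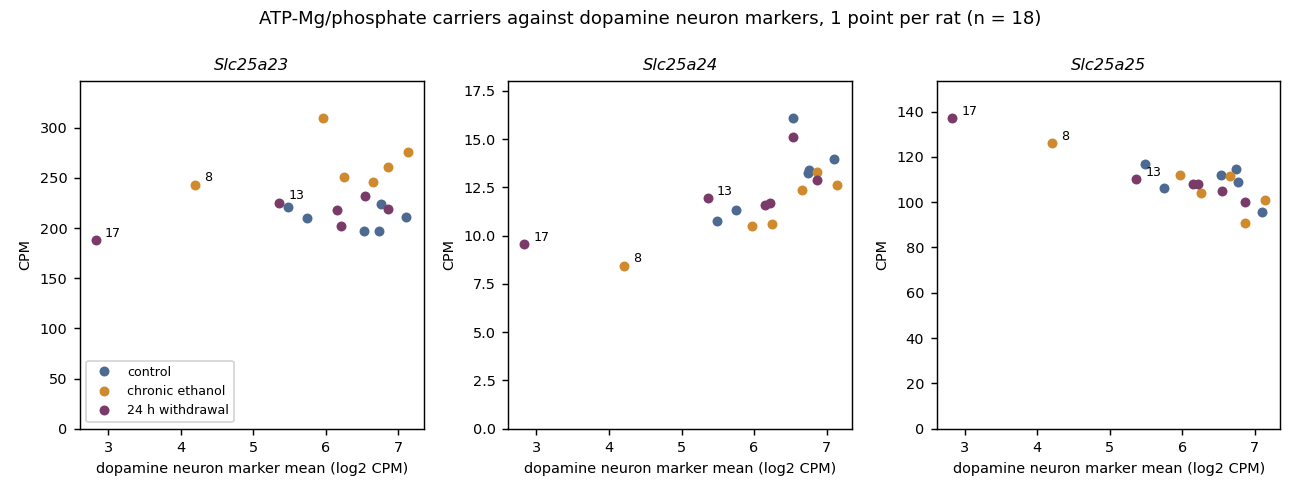
CPM of the ATP-Mg/phosphate carriers in each of the 18 rats against the mean log2 CPM of dopamine neuron markers, coloured by group. Slc25a24 is higher and Slc25a25 lower in rats with more dopamine marker RNA, and for Slc25a23 the 6 ethanol rats lie above the other 12.

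Other genes of carrier biology were counted from 4 lists, and none passed an adjusted p under 0.05 in any comparison. In the machinery that imports carriers, 12 of 12 genes were tested, with 6, 4 and 4 higher and 6, 8 and 8 lower in the 3 comparisons and medians of 0.00, -0.03 and -0.05 log2. At an unadjusted p under 0.05 there were 1, 2 and 2, all lower, beside 2.74%, 3.58% and 5.95% of all genes lower. Timm22, the channel of the carrier insertion complex, averaged 42.6 ± 3.14 CPM in control and 35.6 ± 4.03 in withdrawal (SD, n = 6), a difference of -0.26 ± 0.07 log2 (SE; edgeR adjusted p = 0.349). Tomm70, the receptor that carriers dock on, averaged 81.7 ± 4.97, 73.8 ± 4.17 and 75.0 ± 2.63 CPM in control, chronic ethanol and withdrawal, with a log2 difference of -0.15 in chronic ethanol against control (adjusted p = 0.695). Timm10b, a chaperone of carrier import, was lower in withdrawal than in chronic ethanol by a log2 difference of -0.21 (adjusted p = 0.248).

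Of other mitochondrial channels and transporters 22 of 23 were tested, with 10, 7 and 9 higher, 12, 15 and 13 lower and medians of -0.02, -0.03 and -0.05 log2. At an unadjusted p under 0.05 they counted 0, 4 (1 higher, 3 lower) and 5 (1 higher, 4 lower), where all genes had 5.84%, 9.82% and 15.3%. Vdac1, the main outer membrane channel, averaged 326 ± 20.5 CPM in control and 291 ± 20.4 in withdrawal (SD, n = 6), with a difference of -0.17 ± 0.06 log2 (SE; edgeR adjusted p = 0.403). Sfxn3, a sideroflexin, was lower in withdrawal by log2 differences of -0.32 from control and -0.29 from chronic ethanol (edgeR adjusted p = 0.413 and 0.257). Tspo, the translocator protein, reached 39.7 CPM in rat 13 beside medians of 2.48 to 3.43 CPM.

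Partner enzymes of the shuttles and carriers, 19 of 19 tested, were higher in 8, 9 and 11 and lower in 11, 10 and 8, with medians of -0.02, -0.02 and 0.01 log2. At an unadjusted p under 0.05 there were 1 higher, then 1 higher and 1 lower, then 1 higher, so that 1, 2 and 1 of 19 stand beside the same shares of all genes. Idh2, a matrix dehydrogenase, averaged 62.7 ± 4.35 CPM in control and 71.6 ± 8.84 in chronic ethanol (SD, n = 6), a difference of 0.19 ± 0.08 log2 (SE; edgeR adjusted p = 0.837). Cpt1a, which makes the acylcarnitines that Slc25a20 carries, reached 217 CPM in rat 13, where Slc25a20 was high too, beside group medians of 58.9 to 62.6 CPM. Of family members under other symbols 4 of 5 were tested, and Ucp1 had 0 counts in all libraries. Ucp3 had medians of 0.333, 0.544 and 0.55 CPM and 4.29 CPM in rat 13. Mtch2, a member of the outer membrane, averaged 87.7 ± 3.32, 82.9 ± 3.16 and 84.4 ± 3.58 CPM (SD, n = 6), with no adjusted p under 0.05.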

How the data were processed

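RNA of the VTA was sequenced in 18 libraries, 1 per rat and 6 per group, and nothing in the sources pairs rats across groups. The authors deposited raw counts per RefSeq gene, made with featureCounts 1.5.0 in paired, strand-specific mode per the file headers, after alignment with STAR 2.5.2a to Rnor 6.0 per the submitters' processing notes. Pairs that map to several places were left out by that counter's defaults, which can lower genes with near-identical copies. Gene identifiers were paired with rat symbols through a RefSeq table; 9123 of 38445 genes, holding 1.21 to 1.86% of a library's counts, had no symbol.

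From these counts, CPM were computed with TMM-scaled library sizes. The membership rule used the plain library total, and TMM-scaled CPM gave the same 43 members. Tests were edgeR 4.0.16 quasi-likelihood fits of all 18 libraries in R 4.3.3, over 17637 genes kept by edgeR's expression filter, with Benjamini-Hochberg adjustment over all of them. The SE of a log2 difference was derived from its F statistic. Exact permutation tests and correlations (100000 resamples) used log2 CPM with a prior count of 2. DESeq2 1.42.0, limma-voom (limma 3.58.1), RLE scaling, 2 other filters, fits of 2 groups, the library index and the dopamine marker mean as terms, and left-out rats were alternatives. On simulated counts with 200 altered genes, the chronic ethanol against control fit found 43.9% of those altered by 0.5 log2, 67.2% at 1 and 92.5% at 2, with 5 false among 141 calls. For withdrawal against control these were 31.2%, 80.6% and 90.6%, with 2 false among 134 calls, all as shares of altered genes that passed the filter. Libraries of 1 group differed by more than sampling noise (chi-square per degree of freedom of 12.4 or more), so none was counted as a repeat.

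The members, roles and gene lists were chosen with earlier results of these data known. Full values are given for the 5 members with the lowest p in each comparison, the 6 highest per kb of exon, those with the 4 largest and 4 smallest spreads among members with a mean of at least 5 CPM, and the 2 nearest the rule on either side. Of the other lists, the 2 genes with the lowest p per comparison may be named. Other members appear by range or for a single rat, and were chosen after their values were seen. Promoter windows and their coordinates are RefSeq's on GRCr8, whereas gene positions are the files' on Rnor 6.0, and the builds were not mixed. One member enters the counts over the family, but its own values are not reported here, in the text or in the figures.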

Additional observations from a re-analysis of the deposited data

Results flagged for a closer look

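In each group of 6 rats, a member was listed when its highest or lowest rat stood apart from the next by Dixon's test at the 95% level. Of 129 such groups 19 were listed, where the test's nominal level would list about 1 in 20, or 6.45. The share of all genes listed by this rule is not given here. Members share their rats, so the groups are not independent, and the count is no result about the family. In 12 of the 19 the rat was withdrawal rat 13, the library with pineal gland RNA. Its median distance from the other rats was similar over the members (0.44 log2) and over genes with at least 5 CPM (0.42 log2).

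Low in rat 13 were Slc25a1 at 31.4 CPM, Slc25a4 at 491 CPM, Slc25a15 at 17.9 CPM and Slc25a27 at 41.1 CPM. High in it were Slc25a10 at 234 CPM, Slc25a16 at 59.8 CPM, Slc25a20 at 113 CPM and Slc25a28 at 51.3 CPM. Slc25a33 at 135 CPM, Slc25a35 at 9.77 CPM, Slc25a36 at 179 CPM and Slc25a48 at 25.7 CPM were high there too. The part of pineal RNA in these values was not tested.

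Of the other 7, 2 were high in control rat 5, Slc25a3 at 456 CPM and Slc25a48 at 30.8 CPM. In ethanol rat 8, Slc25a10 stood out at 57.6 CPM and Slc25a48 at 30.6 CPM. Slc25a33 was high in ethanol rat 12 at 77.6 CPM, Slc25a25 in withdrawal rat 17 at 137 CPM and Slc25a17 in withdrawal rat 18 at 81.2 CPM.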

How the results depend on the processing

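No member was called under any other filter, scaling or model tried, or without any single rat (0 to 0 in every comparison), with the following exceptions. DESeq2 called 1 member, Slc25a23, in chronic ethanol against control (log2 0.33) and 1, again Slc25a23, in withdrawal against chronic ethanol (-0.31); it called 46 and 294 genes in all, and 47 in withdrawal against control, where edgeR called 0. An edgeR adjusted p under 0.10 called 1 member in withdrawal against chronic ethanol, Slc25a23 at 0.0793. The lowest adjusted p over all genes there was 0.0709, so a gene outside the family passed as well. The number of all genes under 0.10 is not given here. With the library index as a term the members' median log2 difference was 0.041 in chronic ethanol against control and -1.96e-05 in withdrawal against control, Slc25a11 in withdrawal against control turned to 0.062, and the medians without single rats ran from -0.0014 to 0.016, from -0.04 to -0.02 and from -0.04 to -0.02 in the 3 comparisons. The cause of these differences was not tested. Control and withdrawal rats share no index, so with the index as a term their difference is reached only through the ethanol rats. Counts at an unadjusted p under 0.05, an alternative chosen after seeing the data, were 4 in chronic ethanol against control without rats 5, 8, 13 and 17; 3 in withdrawal against control with the index and 3 with the dopamine marker mean; 3 in withdrawal against chronic ethanol with those 2 groups alone, 4 with the index and 11 without the 4 rats; and for any difference 3 with the dopamine marker mean and 9 without the 4 rats. Over all genes tested the counts in the same order were 2310, then 1027 and 1487, then 1908, 2422 and 2322, then 1717 and 2388. The main fit gave 1030, 1732, 2704 and 2023 genes. Without single rats the members' counts ran from 1 to 4, 3 to 7, 3 to 10 and 3 to 8, with the 10 reached without rat 13. Within the index of rats 9 to 16 the relations with dopamine markers had r = -0.60 for Slc25a25 and 0.57 for Slc25a24, with permutation p of 0.117 and 0.143. Of the named members' values under alternatives, 404 kept direction and side of the threshold, 1 turned (Slc25a11, above) and 2 newly passed it (Slc25a23 by DESeq2). Of the counts, medians and relations, 271 stayed close, 28 moved, mostly counts at an unadjusted p, and 2 no longer passed. No paired analysis was possible because no number or litter in the labels links a rat of one group to a rat of another. Depth limits the members under 2 CPM most.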
